A study of Mus musculus with 4 samples.

Results

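The genes described are *Meis1*, *Meis2*, *Meis3*, *Pbx2*, *Pbx3*, *Pbx4*, *Pknox1* and *Pknox2*, which encode partners of Hox proteins, and the measurement is NR2F1 signal in and around them. Called peaks were joined across the 4 libraries wherever they shared 1 bp or more, and every merged region within 20 kb of the body of 1 of these genes was taken. This gave 309 of 263639 merged regions, at 8 of 21951 protein-coding genes. Of the 309 regions, 51 were called in all 4 libraries with a minimum of 10 cut sites in 2 or more of them and could be tested, out of 35770 such regions genome-wide.

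Single-cell CUT&Tag directs the transposase Tn5 to an antibody, here against the nuclear receptor NR2F1 (COUP-TF1), so that each cut site is a count of NR2F1 signal and not of gene expression. The libraries came from microdissected rhombomere 4 (r4) hindbrain of E10.5 mouse embryos. The genotypes compared were these: *Fam5*snv/snv, homozygous for a noncoding substitution near *Gata2* (8 embryos pooled in replicate 1 and 16 in replicate 2), and WT (26 embryos pooled in each replicate). Both genotypes carried the Isl1MN-GFP transgene, which labels motor neurons, and GFP-positive cells were sorted. The paper's sorting methods describe a final addition of GFP-negative cells, without saying whether these libraries received it. Other cells of the tissue can therefore be present.

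The *Fam5*snv/snv libraries held 8967987 and 10341894 cut sites and the WT libraries 3083946 and 3580517. Signal could be counted only inside the peaks called in the same library, and these covered 108 and 143 Mb in *Fam5*snv/snv, against 31.0 and 93.1 Mb in WT. WT replicate 1 stands apart in this respect. Pairs of libraries shared 3 to 12 barcodes. Of 23 marker genes of motor neurons, progenitors, crest, mesenchyme, endothelium and blood, 18 had a tested promoter region and 0 were called different. Summed over the motor neuron markers the promoter signal was 516 and 503 CPM in *Fam5*snv/snv and 465 and 461 CPM in WT. Of 3 endothelial markers only *Erg* had a tested promoter region, with 50.6 and 48.2 CPM in *Fam5*snv/snv, against 24.5 and 23.9 CPM in WT. At the mesenchyme gene *Prrx1* the signal was 7.52 and 5.31 CPM in *Fam5*snv/snv, against 9.81 and 22.5 CPM in WT. Summed over the 3 mesenchyme markers it was 39.9 and 33.6 CPM in *Fam5*snv/snv and 18.6 and 79.8 CPM in WT, so the WT libraries lay on either side. *Erg* and *Prrx1* were the markers with an unadjusted p under 0.05 by edgeR, 1 higher and 1 lower. Since NR2F1 signal is not expression, these values name no cell type, and their part in the results was not tested. A smaller share of cells with signal and less signal per cell cannot be told apart in the summed counts.

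MEIS, PBX and PKNOX (PREP) proteins belong to the TALE class of homeodomain proteins. PBX proteins bind DNA side by side with Hox proteins, and MEIS and PKNOX proteins bind PBX, help to bring it into the nucleus and recognise a motif of their own. In the developing hindbrain, complexes of Hox, PBX and MEIS or PKNOX proteins act at enhancers of Hox genes, including that by which *Hoxb1* maintains its own expression in r4.

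The sequences below are those in the tested regions that most resemble binding motifs of the proteins concerned, read from the mm10 genome. NR2F1 recognises AGGTCA and direct repeats of it spaced by 1 base, and capitals mark the match to that repeat. No tested region of these genes held a perfect copy on either strand, against 1.93% of all tested regions, and 2 of 51 (3.92%) held a copy with at most 1 mismatch, against 10.1% of all. One lies in an intron of *Pknox2*, on the plus strand of chr9:36917345-36917405, and carries G2A, counted from the first base of the repeat, with the base of the motif first. The other lies 15.0 kb upstream of *Pbx4*, in a region over the promoter of *Gmip*, on the minus strand of chr8:69817483-69817543, and carries C12T.
Pknox2 intron: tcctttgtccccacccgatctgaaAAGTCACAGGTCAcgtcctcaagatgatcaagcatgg
Pbx4 upstream: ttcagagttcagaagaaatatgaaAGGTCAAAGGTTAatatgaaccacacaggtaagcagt
The *Pknox2* copy lay inside a called peak in both *Fam5*snv/snv libraries and in neither WT library, and the *Pbx4* copy in a peak of *Fam5*snv/snv replicate 2 only. The region around the *Pknox2* copy nevertheless held 106 and 100 cut sites in *Fam5*snv/snv and 53 and 32 in WT, so that the WT signal counted there lay beside the copy and not over it. A match is a description of the letters and not evidence of binding.

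The other set is shown because it joins motifs of the proteins that these genes encode. TGATNNAT is a PBX-HOX composite motif and TGACAG the core motif of MEIS and PKNOX proteins, and copies of both with at most 30 bp between them were found in 4 of 51 tested regions (7.84%), against 5.12% of all. Copies of both that lay under a called peak in all 4 libraries were found past the end of *Meis1* (chr11:18874672-18874705), past the end of *Meis2* (chr2:115860299-115860335) and in an intron of *Meis2* (chr2:115887796-115887830), each shown on the plus strand with both motifs in capitals.
Meis1 downstream: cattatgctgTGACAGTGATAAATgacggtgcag
Meis2 downstream: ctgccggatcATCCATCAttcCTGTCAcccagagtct
Meis2 intron: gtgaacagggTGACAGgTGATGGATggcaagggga
At the first and the third the motifs stand on the plus strand, 0 and 1 bp apart, and at the second both stand on the minus strand, 3 bp apart. This pairing was searched for after other values had been seen.

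Over the tested regions as a whole, the share of these genes' regions with a motif within 250 bp of the midpoint (both strands) was below that of all regions for AGGTCA and TGACAG, and above it for the others. AGGTCA was in 12 of 51 (23.5%), against 33.8% of all. The repeat with up to 2 mismatches, which contains AGGTCA or copies close to it, was in 7 (13.7%), against 11.4%. TGACAG was in 11 (21.6%), against 34.3%, and TGATNNAT in 9 (17.6%), against 16.6%. In the whole merged region, AGGTCA (80.4%, against 75.0%) and TGACAG (84.3%, against 76.8%) lay above all regions, and the repeat lay below (33.3%, against 36.0%). TGATNNAT was there in 34 (66.7%), against 50.7%. The regions of these genes were also wider, with a median of 2858 bp against 1922 bp.

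All 8 genes had a promoter region that could be tested, as did 12952 of 21951 coding genes. Every tested region has a peak in all 4 libraries by definition. The density of NR2F1 signal there differed widely between the 8 genes. A promoter region is a tested region that overlaps 1 kb on either side of a start of a coding transcript, and density is CPM (cut sites scaled to the total of the tested regions, after TMM normalization) per kb of called peak. By WT density *Pknox1* stood at the 98.8th percentile of 12647 promoter regions, *Pbx4* at the 93.4th and *Meis3* at the 89.8th. *Pbx3* (61.5th), *Pbx2* (57.7th), *Meis1* (51.7th), *Pknox2* (47.4th) and *Meis2* (37.0th) lay in the middle of the WT distribution. The *Pbx2* region is also a promoter region of the coding gene *Gpsm3*, so its signal cannot be credited to *Pbx2* alone. By *Fam5*snv/snv density *Pknox1* (98.6th), *Pbx4* (95.1th) and *Meis3* (93.4th) again stood highest. The order of the rest differed there: *Meis1* (76.8th), *Pbx3* (70.5th), *Pbx2* (62.4th), *Meis2* (50.7th) and *Pknox2* (33.6th).

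At *Pknox1*, which encodes the PBX partner PREP1, the density was 48.7 and 41.4 CPM per kb in *Fam5*snv/snv and 103 and 64.5 CPM per kb in WT. At *Meis2* it was 14.6 and 11.9 CPM per kb in *Fam5*snv/snv and 20.6 and 18.0 CPM per kb in WT. The lowest *Pknox1* value thus lay above the highest *Meis2* value, within either genotype. At *Pbx4* the density was 34.0 and 31.7 CPM per kb in *Fam5*snv/snv and 61.1 and 45.0 CPM per kb in WT. At *Meis3* it was 33.1 and 27.1 CPM per kb in *Fam5*snv/snv, and 57.9 and 34.4 CPM per kb in WT, so that its libraries overlapped those of *Pbx4* in both genotypes and this pair had no clear order.

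Total signal in the promoter regions did not pass the test in either direction at any of the 8 genes with all 4 libraries (edgeR quasi-likelihood test, Benjamini-Hochberg adjustment over 35770 regions). Without WT replicate 2, edgeR called 3 of them lower, where 17.7% of all regions were called in either direction, and without WT replicate 1 none of the 8. Both *Fam5*snv/snv libraries lay below both WT libraries at 3 of the 8 (*Pknox1*, *Pbx2* and *Pbx3*), where 37.8% of all tested promoter regions did. The *Pknox1* promoter region (chr17:31563185-31567127) held 162 and 163 CPM in *Fam5*snv/snv and 221 and 167 CPM in WT. The replicates of *Fam5*snv/snv were close to each other and both lay below both WT libraries, of which replicate 1 was far higher (log2 fold change −0.25, 95% interval −0.80 to 0.29, adjusted p = 0.736). Leaving out WT replicate 1 gave −0.04, and leaving out WT replicate 2 gave −0.44, which edgeR called (adjusted p = 0.0324). The *Meis3* region (chr7:16170968-16177698) held 188 and 181 CPM in *Fam5*snv/snv and 246 and 154 CPM in WT. Here the *Fam5*snv/snv values fell between those of the WT libraries (log2 fold change −0.12, interval −0.76 to 0.53, adjusted p = 0.907). Its direction turned on a single WT library, with 0.25 when WT replicate 1 was left out and −0.42 when WT replicate 2 was left out, the second of them called by edgeR (adjusted p = 0.0369).

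Of the PBX genes, *Pbx3* (chr2:34370100-34373749) held 58.2 and 53.4 CPM in *Fam5*snv/snv and 80.6 and 66.1 CPM in WT, without overlap between the genotypes (log2 fold change −0.39, interval −0.88 to 0.09, adjusted p = 0.603). *Pbx2* (chr17:34589613-34594599, a region shared with the promoter of *Gpsm3*) held 78.9 and 71.1 CPM in *Fam5*snv/snv, against 108 and 83.7 CPM in WT, also without overlap (log2 fold change −0.36, interval −0.87 to 0.16, adjusted p = 0.631). Leaving out WT replicate 1 gave −0.17 at *Pbx2*, and leaving out WT replicate 2 gave −0.53, which edgeR called (adjusted p = 0.0420). *Pbx4* (chr8:69831563-69833371) held 59.6 and 55.1 CPM in *Fam5*snv/snv and 57.1 and 67.9 CPM in WT, and its genotypes overlapped (log2 fold change −0.12, interval −0.60 to 0.36, adjusted p = 0.864). PBX proteins are the subunits of these complexes that touch the Hox protein.

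The remaining promoter regions overlapped between genotypes. *Meis1* (chr11:19018200-19022196), whose product is a MEIS partner of PBX, held 71.9 and 77.6 CPM in *Fam5*snv/snv and 75.3 and 78.4 CPM in WT (log2 fold change −0.04, interval −0.50 to 0.42). *Meis2* (chr2:116064672-116068250) held 48.8 and 42.6 CPM in *Fam5*snv/snv and 38.5 and 50.6 CPM in WT (log2 fold change 0.04, interval −0.51 to 0.58). *Pknox2* (chr9:37139152-37150311), the gene of PREP2, held 113 and 108 CPM in *Fam5*snv/snv and 102 and 115 CPM in WT (log2 fold change 0.02, interval −0.45 to 0.50). These intervals still allow changes of about the size of those at *Pbx2* and *Pbx3*.

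**Figure D1:**
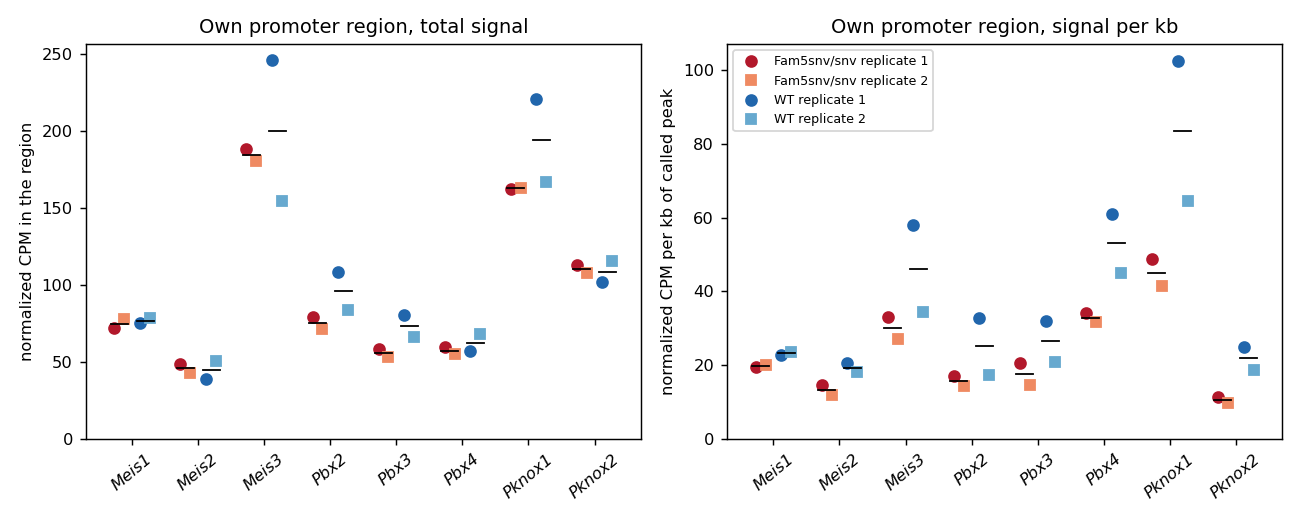
NR2F1 signal in the own promoter region of each gene, as total normalized CPM (left) and as CPM per kb of called peak (right). Points are the *Fam5*snv/snv and WT libraries and black lines the means of 2 libraries. *Meis3* and *Pknox1* carried the most total signal, and *Pknox1* at 103 CPM per kb in WT replicate 1 is the highest density plotted.

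In single barcodes, thinned to 567 cut sites each, *Meis3* and *Pknox1* led. A cut site at *Meis3* was seen in 6.95% and 5.95% of *Fam5*snv/snv barcodes and in 8.75% and 5.66% of WT barcodes. At *Pknox1* it was seen in 6.77% and 5.95% of *Fam5*snv/snv barcodes and in 7.41% and 5.88% of WT barcodes. The median promoter region was hit in 1.02% to 1.14% of barcodes, and the shares of all 8 genes were above it in all 4 libraries. These shares are not scaled by length, and a wider region can be hit more often. The promoter regions of these genes ran from 1809 bp (*Pbx4*) to 11160 bp (*Pknox2*), and all but that of *Pbx4* were wider than the median promoter region (2227 bp). At *Meis2*, the lowest of the 8 in 3 of 4 libraries, the shares were 1.89% and 1.82% in *Fam5*snv/snv and 1.40% (exact 95% interval 0.92% to 2.03%) and 1.96% in WT. Without thinning, *Meis3* was hit in 21.0% and 19.6% of *Fam5*snv/snv barcodes and in 10.9% and 12.4% of WT barcodes, beside medians of 2693.5 and 2984 cut sites per barcode in *Fam5*snv/snv and 879 and 1867 in WT. Thinning left out 641 barcodes of WT replicate 1 and 0 of the others. The intervals cover counting error only.

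**Figure D2:**
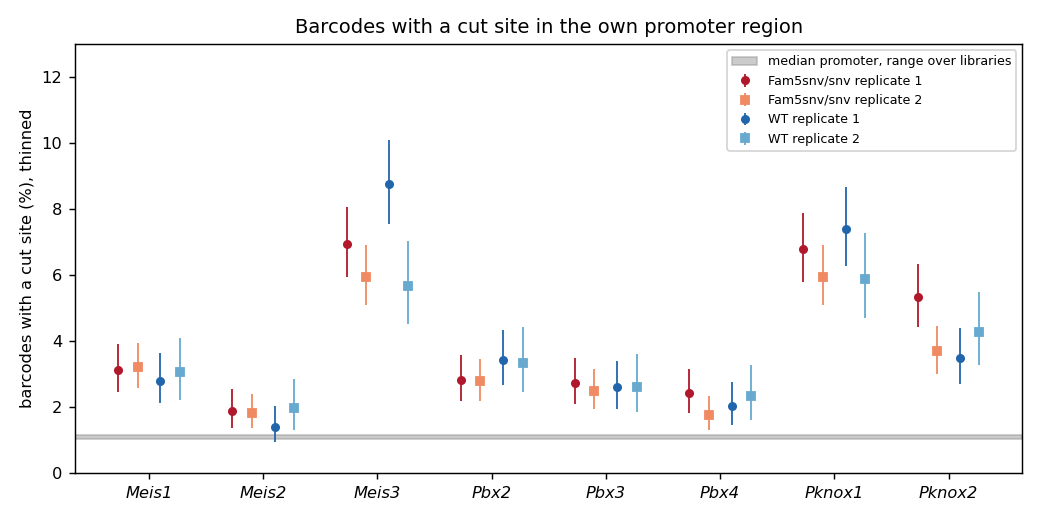
Share of barcodes with a cut site in the own promoter region after thinning to 567 cut sites per barcode, with exact 95% binomial intervals. The grey band is the median promoter region (1.02% to 1.14%), and all plotted shares lie above it, while the interval of *Meis2* in WT replicate 1 reaches into it. The shares are not scaled by the length of the region.

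*Meis1* and *Meis2* carried a block of signal just past the end of the gene. The *Meis2* region (chr2:115851605-115862279, intergenic, midpoint 6.12 kb past the end of the gene) was 10675 bp wide and held 147 and 139 CPM in *Fam5*snv/snv and 164 and 165 CPM in WT. It ranked 503 of 35770 regions by mean WT signal. In cut sites it exceeded the *Meis2* promoter region 3.01 and 3.26 times in *Fam5*snv/snv and 4.26 and 3.25 times in WT. Of 12952 coding genes with a tested promoter region, 289 (2.23%) had a downstream region above their own promoter in all 4 libraries, which is 14.0% of the 2059 genes with a tested downstream region at all. Per kb of called peak the *Meis2* ratio was 1.13 and 1.10 in *Fam5*snv/snv and 1.86 and 1.00 in WT, so per unit of length the region and the promoter were close in 3 of 4 libraries.

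The *Meis1* counterpart (chr11:18873654-18879688, 6035 bp) holds, or lies within 1 kb of, a transcript start of the noncoding gene *8430419K02Rik*. This region held 63.6 and 67.9 CPM in *Fam5*snv/snv and 76.0 and 66.5 CPM in WT. Its cut sites amounted to 0.88 and 0.87 times those of the *Meis1* promoter region in *Fam5*snv/snv and 1.01 and 0.85 times in WT, where the median over genes with a downstream region was 0.44 and 0.46 in *Fam5*snv/snv and 0.34 and 0.38 in WT. Per kb of called peak the *Meis1* ratio was 0.61 and 0.58 in *Fam5*snv/snv and 1.07 and 0.51 in WT. The median per kb over those genes was 0.72 and 0.72 in *Fam5*snv/snv and 0.74 and 0.69 in WT. Per unit of length *Meis1* thus lay above the median only in WT replicate 1. Neither region passed the test between genotypes (log2 fold change −0.20 at *Meis2* and −0.12 at *Meis1*, adjusted p = 0.760 and 0.868 by edgeR).

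**Figure D3:**
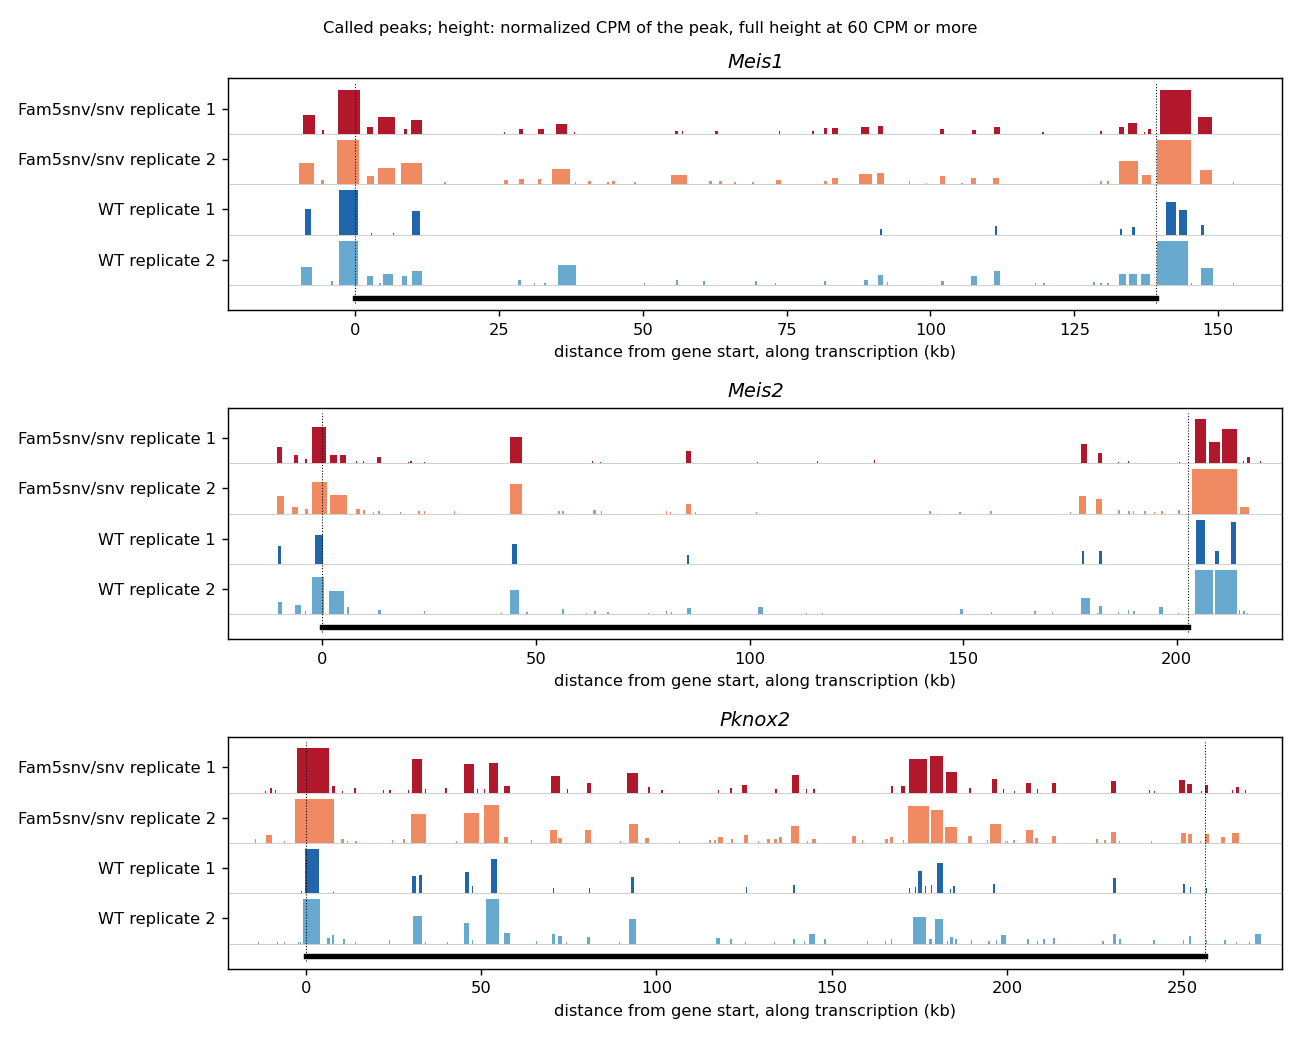
Called peaks in each library along *Meis1*, *Meis2* and *Pknox2*, as distance from the gene start in kb. The height is the normalized CPM of a peak, and the black bar is the gene body. At *Meis1* and *Meis2* signal stands at the start and just past the end in all 4 libraries, while at *Pknox2* it recurs along the body. In these windows WT replicate 1 has fewer peaks and less covered length than the other libraries.

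The genes differed in how much of their signal lay at the promoter. In every library the promoter region held at least 78.4% of the cut sites of the *Meis3* window and at least 74.6% at *Pknox1*, but 13.1% to 19.9% at *Meis2*, 18.4% to 29.1% at *Meis1* and 17.1% to 23.5% at *Pknox2*. *Pknox2*, whose body of 256.426 kb is the longest of the 8, had 17 of the 51 tested regions. In the *Pbx2* window promoters of other coding genes held most of the cut sites. The region over the promoters of *Agpat1* and *Rnf5* (chr17:34602586-34607094, 13.57 kb from the *Pbx2* start) held 442 and 408 CPM in *Fam5*snv/snv and 841 and 471 CPM in WT (log2 fold change −0.63, interval −1.41 to 0.16, adjusted p = 0.604). Leaving out WT replicate 1 gave −0.16 here, and leaving out WT replicate 2 gave −0.99, which edgeR called (adjusted p = 3.33e-05).

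**Figure D4:**
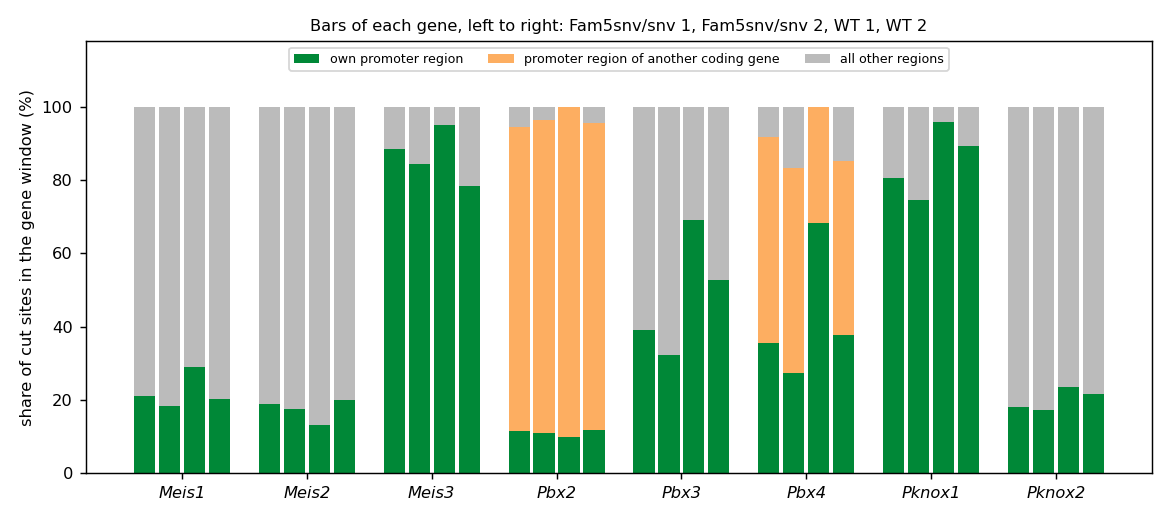
Share of the cut sites in each gene window (gene body and 20 kb on either side) that lay in the own promoter region, in promoter regions of other coding genes and elsewhere, with 4 bars per gene (*Fam5*snv/snv replicates 1 and 2, then WT replicates 1 and 2). Other promoters held most of the *Pbx2* window, and the own promoter most of the *Meis3* and *Pknox1* windows.

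Between the genotypes, 0 of the 51 regions were called by edgeR at an adjusted p under 0.05, where 0% of all tested regions were called. The smallest adjusted p was 0.573. At an unadjusted p under 0.05, 3 regions were higher, where 5.29% of all regions were, and 0 were lower, where 3.37% were. DESeq2 called 1 region higher and 0 lower, where it called 1.02% of all regions higher and 0.542% lower. Without WT replicate 1 edgeR called 5 regions higher and 0 lower, where 5.34% of all regions were called, and without WT replicate 2 it called 6 higher and 5 lower, where 17.7% were. An exact permutation test of a single region, 2 libraries against 2, cannot go below p = 0.333. Among the regions covered by peaks to at least 50% in every library, 0 of 11 were called, where 0.202% of all such regions were.

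The 3 regions with an unadjusted p under 0.05 all lay in introns of *Pknox2*. The region 139.49 kb from the *Pknox2* start (chr9:37006904-37008935) held 22.7 and 21.6 CPM in *Fam5*snv/snv and 8.76 and 4.92 CPM in WT, from 166 and 171 cut sites in *Fam5*snv/snv and 25 and 14 in WT. Its log2 fold change was 1.69 ± 0.42 (SE), with an adjusted p = 0.573 by edgeR. Leaving out WT replicate 1 gave 2.16 (adjusted p = 0.0109) and leaving out WT replicate 2 gave 1.34 (adjusted p = 0.0237), both called by edgeR. It is the region DESeq2 called (adjusted p = 0.0249), and over the alternatives its adjusted p ran from 0.0109 without WT replicate 1 to 1.000 without *Fam5*snv/snv replicate 2. Called peaks covered 97.7% and 100% of it in *Fam5*snv/snv and 23.5% and 22.1% in WT. Per kb of called peak its signal was 11.4 and 10.6 CPM in *Fam5*snv/snv, against 18.4 and 11.0 CPM in WT. The WT mean was thus the higher one per kb, but WT replicate 2 lay between the *Fam5*snv/snv libraries.

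The other *Pknox2* regions of this group were also covered less by called peaks in WT. The region 196.6 kb from the start held 17.1 and 23.9 CPM in *Fam5*snv/snv and 10.9 and 2.46 CPM in WT (log2 fold change 1.62, adjusted p = 0.573; 3.04 and called without WT replicate 1, adjusted p = 0.00477, and 0.92 without WT replicate 2), with 48.0% and 100% covered by peaks in *Fam5*snv/snv and 16.2% and 12.1% in WT. The region 184.02 kb from the start held 26.8 and 19.7 CPM in *Fam5*snv/snv and 11.6 and 14.1 CPM in WT (log2 fold change 0.86, adjusted p = 0.573), with 93.4% and 97.2% covered in *Fam5*snv/snv and 18.7% and 43.1% in WT. Both *Fam5*snv/snv libraries lay above both WT libraries at these 3 regions, where 23.2% of all tested regions did. Regions picked for a small p are likely to show this. In the other direction, the lowest region was an intronic one of *Meis1* 111.5 kb from the start, with 7.66 and 6.70 CPM in *Fam5*snv/snv and 9.46 and 17.2 CPM in WT (log2 fold change −0.89, adjusted p = 0.615 by edgeR, and −0.40 without WT replicate 2).

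Away from coding starts, the strongest regions by WT signal in the other genes did not pass either. In an intron of *Pknox2*, 52.92 kb from the start (chr9:37092332-37096652), the signal was 42.0 and 51.1 CPM in *Fam5*snv/snv and 45.9 and 72.5 CPM in WT (log2 fold change −0.35, adjusted p = 0.690, and 0.02 without WT replicate 2). In an intron of *Pbx3*, 123.24 kb from the start, it was 14.1 and 19.5 CPM in *Fam5*snv/snv and 12.6 and 14.1 CPM in WT (log2 fold change 0.33, adjusted p = 0.789). At *Pknox1* the intronic region 21.45 kb from the start had 9.16 and 10.7 CPM in *Fam5*snv/snv and 8.41 and 3.87 CPM in WT, and at *Meis3* the region 15.93 kb upstream had 5.88 and 9.86 CPM in *Fam5*snv/snv and 6.66 and 10.9 CPM in WT. Both held far less signal in total than the promoter regions of the same genes. *Pbx2* and *Pbx4* had no tested region away from coding starts.

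Across the 51 regions the median log2 fold change was 0.22, against 0.02 over all tested regions, and both *Fam5*snv/snv libraries lay above both WT libraries in 18 regions (35.3%), where 23.2% of all regions did, and below them in 7 (13.7%), where 21.4% did. None of the 18 was a promoter region. In the 12 promoter regions, those of neighbouring genes included, the median was −0.12, against −0.21 over all promoter regions, and in the other 39 it was 0.33, against 0.19. The median fell as the called share of a region grew: the median was 0.68 in the 21 regions with under 25% covered in some library (0.54 over all such regions), 0.18 in the 19 with 25% to 50% (−0.01 over all) and −0.14 in the 11 with at least 50% in every library (−0.31 over all). Normalized and fitted on the 8900 regions of the last kind alone, the 11 had a median of 0.16, against −0.01 over all 8900, and 8 were positive. In that fit the promoter region gave 0.06 at *Pknox1* and −0.05 at *Pbx2*. Scaled per kb of called peak, the median was −0.72, against −0.76 over all regions, and 1 of 51 was positive. At the *Meis1* region 5.41 kb from the start, WT replicate 1 had 1 cut site in a peak of 40 bp, beside 154 and 161 cut sites in *Fam5*snv/snv and 37 in WT replicate 2.

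**Figure D5:**
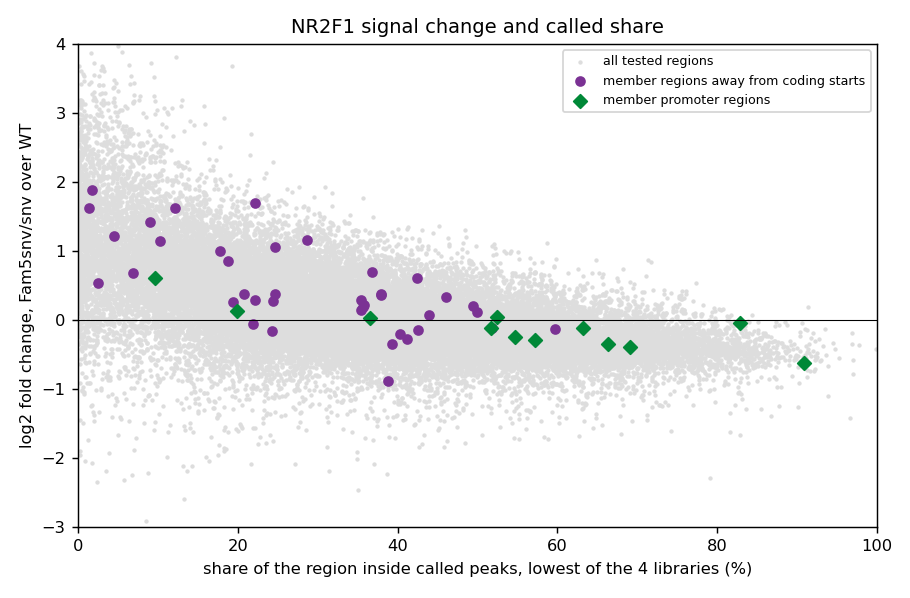
Log2 fold change (*Fam5*snv/snv over WT) of the tested regions against the share of the region inside called peaks in the library where that share is lowest, with 39 regions away from coding starts, 12 promoter regions and all 35770 tested regions in grey (a few grey points lie beyond the axis). In this fit to all tested regions, the 11 regions with at least 50% covered in every library have a median of −0.14 and the 21 with under 25% a median of 0.68.

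The 258 regions that could not be tested were mostly peaks of few libraries. Of all 309, 157 were called in 1 library, 49 in 2, 52 in 3 and 51 in 4. *Fam5*snv/snv replicates 1 and 2 had a peak in 160 and 221 of them, and WT replicates 1 and 2 in 51 and 183. The 51 peaks of WT replicate 1 all lay in regions called in every library, as did 96.0% of its regions genome-wide. Both *Fam5*snv/snv libraries and neither WT library had a peak in 25 regions (8.79% of all merged regions are of this kind). That 0 were called in both WT libraries only follows from where the WT replicate 1 peaks lay. The regions that were tested held 84.1% and 79.0% of these genes' cut sites in *Fam5*snv/snv and 100% and 82.1% in WT.

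Summed over each gene window and scaled to all windows, 0 of 8 genes were called by edgeR, where 0% of 17981 windows were called. *Pbx3* was the 1 gene with an unadjusted p under 0.05, where 6.17% of windows had one. Its window held 79.2 and 85.4 CPM in *Fam5*snv/snv and 65.2 and 60.7 CPM in WT (log2 fold change 0.39, interval 0.02 to 0.76, adjusted p = 0.758), while its promoter region lay lower in *Fam5*snv/snv. Peaks covered 12.5 and 18.9 kb of that window in *Fam5*snv/snv and 4.21 and 9.75 kb in WT. *Pknox2* held 331 and 338 CPM in *Fam5*snv/snv and 243 and 266 CPM in WT (log2 fold change 0.40, adjusted p = 0.758). Both *Fam5*snv/snv libraries lay above both WT libraries in 3 of the 8 windows, where 22.1% of all windows did. DESeq2 called 0 of the 8 windows, where it called 2.17% of all.

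Single libraries moved several windows, with and without strong neighbouring promoters. In the *Pknox1* window the log2 fold change was 0.08, and became 0.34 without WT replicate 1 and −0.14 without WT replicate 2. In the *Meis3* window it was −0.11, and became 0.23 and −0.38 in the same order. Promoters of other coding genes held 0% of the cut sites in both of these windows. *Pbx2* held 367 and 335 CPM in *Fam5*snv/snv and 609 and 342 CPM in WT (log2 fold change −0.44, adjusted p = 0.791), which became 0.04 without WT replicate 1. *Pbx4* held 89.1 and 103 CPM in *Fam5*snv/snv and 46.8 and 86.9 CPM in WT (log2 fold change 0.52, adjusted p = 0.770), and 0.16 without that library. Leaving out the promoter regions of other coding genes, an alternative chosen after seeing the data, gave −0.15 for *Pbx2* and 0.05 for *Pbx4*. Without WT replicate 2, edgeR called *Pbx4*, *Pknox2* and *Meis1* higher and *Pbx2* and *Meis3* lower, where 38.3% of all windows were called, and without WT replicate 1 it called 0 of the 8, where 5.7% were.

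Other genes of the pathway were read at their promoter regions. Of 22 further TALE genes, a PBX inhibitor and Hox genes of paralog groups 1 to 4, 15 had a tested promoter region and 0 were called. *Hoxa3* had 18.6 and 17.8 CPM in *Fam5*snv/snv and 10.2 and 6.33 CPM in WT (log2 fold change 1.14, adjusted p = 0.573). *Irx1*, a TALE gene of the Iroquois family, had 14.1 and 13.1 CPM in *Fam5*snv/snv and 24.5 and 28.8 CPM in WT (log2 fold change −0.97, adjusted p = 0.573). *Irx5*, of the same family, had 76.3 and 76.9 CPM in *Fam5*snv/snv and 112 and 114 CPM in WT (log2 fold change −0.56, adjusted p = 0.573). These are the 3 with an unadjusted p under 0.05. At *Hoxb1*, the Hox gene of r4, the values were 43.9 and 33.3 CPM in *Fam5*snv/snv and 31.9 and 24.3 CPM in WT, which did not pass (adjusted p = 0.624). *Hoxb1* was chosen for mention after its values had been seen.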

How the data were processed

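Anti-NR2F1 single-cell CUT&Tag libraries (2 *Fam5*snv/snv, 2 WT) were analysed from deposited peak positions and count matrices, which hold whole numbers of cut sites for each barcode in each peak. The authors made these counts with Cell Ranger ATAC on mm10, separately in each library, so a library has counts only inside its own peaks. The matrix headers give software version 1.2.0, which is not the version the study's methods name. Counts were summed over barcodes and over merged regions, since cells are not replicates; no cells were filtered or clustered and no doublet caller was run. Regions were tested with edgeR 4.0.16 in R 4.3.3 (quasi-likelihood, TMM, no block, Benjamini-Hochberg adjustment over all regions), with DESeq2 1.42.0 as an alternative. Biological variation between libraries (common coefficient) was 0.305. Of 50 regions per fold size simulated among 35770, the share recovered was 44% at 0.25-fold, 2% at 0.5-fold, 0% at 2-fold and 62% at 4-fold, with 0 false calls. Genes are from GENCODE M21 and sequences from RefSeq GRCm38.p6 (mm10). Motif searches covered both strands and were tested on simulated data. Replicates are the study's pools of embryos. Named were the promoter region and the strongest region away from coding starts of each gene, the 3 regions of smallest p in each direction, regions with a repeat of at most 1 mismatch and, of the other TALE and Hox genes, the 3 of smallest p in each direction, of which those with p under 0.05 are given. The genes, lists and rules were chosen with earlier results of these data known. The alternatives were other normalizations, filters, region sets, a length offset, a replicate block and leaving out each library.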

Additional observations from a re-analysis of the deposited data

How the results depend on the processing

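With DESeq2, 366 regions were called higher and 194 lower over the genome, of which 1 and 0 belong to these genes, and 341 gene windows were called higher and 50 lower, with 0 of the 8. Among the 8900 regions covered to at least 50% in every library, 14 were called higher and 4 lower, with 0 of 11 of these genes. The offset for called length called 2 windows lower. Leaving out 1 library gave 0 to 4094 regions higher and 0 to 2221 lower, of these genes 0 to 6 and 0 to 5, and 0 to 4534 windows higher and 0 to 2350 lower, of these genes 0 to 3 and 0 to 2. In the whole region the motif shares were 80.4% for AGGTCA (75.0% of all tested regions) and 33.3% for its repeat (36.0%). They were 84.3% for TGACAG (76.8%) and 66.7% for TGATNNAT (50.7%). For AGGTCA, its repeat and TGACAG the direction against all regions was thus the reverse of that near the midpoint. Some settings moved the median of all regions: it was 0.97 when scaled by barcodes, −0.76 per kb of called peak and 0.61 where no peak was needed in every library, against 0.02. Relative to it, the median of these genes' regions was 0.21, 0.04 and 0.07. No label says whether replicate numbers pair the samples, and they were not treated as pairs. The correlation of deviations was 0.029 for the same number. With 2 libraries per genotype this value cannot show whether libraries were prepared together. With the replicate block 0 regions and 0 windows were called and the median of these genes' regions was 0.23. Taken relative to the median where a setting moved it, the sign of the log2 fold change turned in 33 of 261 values of the 21 named regions and in 12 of 96 values of the 8 windows (40 and 16 as computed, without that shift), none of them past the threshold. The WT libraries had a median of 42 and 47 cut sites per tested region.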
